A study of Canis lupus familiaris with 18 samples.

Results

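The nuclear genes of oxidative phosphorylation were followed across 18 RNASeq libraries of canine high grade oligodendroglioma (HGO), a diffuse glial brain tumor. Members were taken by symbol: every gene listed whose name begins with NDUFA, NDUFB, NDUFC, NDUFS, NDUFV, UQCR, COX4 to COX8 or ATP5, together with CYC1 and SDHA to SDHD. This gave 57 entries under 56 symbols among 29993 genes, because NDUFB6 was listed 2 times, under different Ensembl identifiers. Of these, 56 entries passed the filter on low counts. COX6A2, the muscle isoform of a cytochrome c oxidase subunit, did not pass, with at most 3 counts in any library. By complex the entries were 34 for complex I (26 subunits and 8 assembly factors of the NDUFAF series), 3 for complex II, 7 for complex III, 8 for complex IV and 5 for complex V. NDUFA4L2 was placed with complex IV because its relative NDUFA4 is a subunit of that complex.

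The 18 tumors came from 11 French bulldogs and from a comparison group of 7 dogs of other short-muzzled breeds, namely 4 boxers (comparison 1, 3, 4 and 5) and 3 Boston terriers (comparison 2, 6 and 7). The samples were formalin-fixed, paraffin-embedded blocks of tumor that had been surgically removed before any trial therapy, and both groups carried the same diagnosis. The comparison asked whether the tumor transcriptome of French bulldogs differed from that of the other breeds. Each library was labelled as 1 dog, so the spread reported is between dogs, with a reservation for French bulldogs 2 and 8 given below.

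Oxidative phosphorylation makes most of the ATP of a resting cell. Complex I takes electrons from NADH and complex II takes them from succinate, complex III passes them through cytochrome c to complex IV, and the proton gradient that complexes I, III and IV build is used by complex V, the ATP synthase. Most subunits are encoded in the nucleus and are imported into mitochondria, whereas a small core set is encoded by mitochondrial DNA. In brain tumors the balance between this pathway and glycolysis is a frequent subject of study.

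Total counts ran from 8212452 to 13169880 per library, and a count of 3 corresponded to 0.223 to 0.351 CPM (counts scaled to the library total after TMM normalization). Members took 0.0931 to 0.198% of all counts, the lowest share being in French bulldog 11 and the highest in French bulldog 8. No symbol of the 13 mitochondrially encoded subunits was listed, so the nuclear set could not be compared with its mitochondrial partners. Genes differ in length, and transcript lengths were not used here, so CPM are compared between libraries for a gene and not between genes. In RefSeq, 23 of the 56 members tested overlap another gene, and the strand setting of the counting was not given in the sources used here, so reads of these pairs may not be separable.

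Several libraries stood apart from the others and bear on the values below. The library of French bulldog 6 did not carry the markers of its labelled tissue: OLIG2 had 0 counts and SOX10 had 2 counts (0.208 CPM, against 153 to 468 CPM in the other 17), while CD163, a macrophage scavenger receptor, was at 2897 CPM against 2.45 to 40.6. The summed level of 6 oligodendrocyte lineage markers was 43.4 CPM there against 959 to 6784 CPM elsewhere, and that of 8 macrophage and microglia markers was 5882 CPM against 47.5 to 299. At an unadjusted p under 0.05, 5 of 8 macrophage and microglia markers were higher in French bulldogs with this library and 0 without it, as was 1 of 1 T cell marker tested (0 without it). Of all genes tested, 7.02% were higher at that threshold with this library and 6.92% without it. Without it 6 of the 8 markers still had a higher fitted level (median log2 fold change 0.35). By edgeR's quasi-likelihood test CD163 was then at 1.05 (unadjusted p = 0.0502) and the T cell marker CD2 at 1.03 (unadjusted p = 0.057). None of the 10 neuronal, 4 myelinating oligodendrocyte, 6 oligodendrocyte lineage, 4 astrocyte, 4 endothelial and 3 muscle markers tested was under that threshold with all libraries. Without French bulldog 6, OLIG2 (-0.38, unadjusted p = 0.038) and TTN, a muscle gene (-1.10, unadjusted p = 0.0083), were lower in French bulldogs by edgeR's quasi-likelihood test. French bulldogs 2 and 8 share a case number in their library names. Their counts differed by a chi-square of 8.72 per degree of freedom, above sampling noise but less than in any other pair of French bulldogs (30.3 or more). This compares libraries only, and whether the 2 came from separate dogs was not settled by it. They were counted as labelled, as 2 dogs, and also summed as 1 dog. Values without French bulldog 6 are given beside those it moves most.

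The level of the pathway was first summed by complex in each library. All members together had 1595 ± 261 CPM in French bulldogs (SD, n = 11) and 1430 ± 119 CPM in the comparison group (SD, n = 7), and 1547 ± 219 CPM without French bulldog 6 (SD, n = 10). For complex I the sums were 821 ± 121 and 720 ± 73.6 CPM, and for complex II they were 217 ± 33.3 and 200 ± 22.7 CPM. Complex III was nearly level, at 206 ± 36.3 and 203 ± 20.9 CPM. In every complex the French bulldog and comparison libraries overlapped, and each difference of means was smaller than the SD among French bulldogs.

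Complex IV and complex V leaned most on a single library. The complex IV sum was 113 ± 35.1 CPM in French bulldogs and 95.0 ± 12.2 CPM in the comparison group, and it fell to 104 ± 20.4 CPM once French bulldog 6 was left out. The complex V sum was 237 ± 69.1 and 213 ± 38.5 CPM, and 219 ± 33.2 CPM without that library. French bulldog 6 was at 2.04 times the median of the other 17 libraries for complex IV and at 1.94 times for complex V, compared with 1.22 times for complex I.

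**Figure D1:**
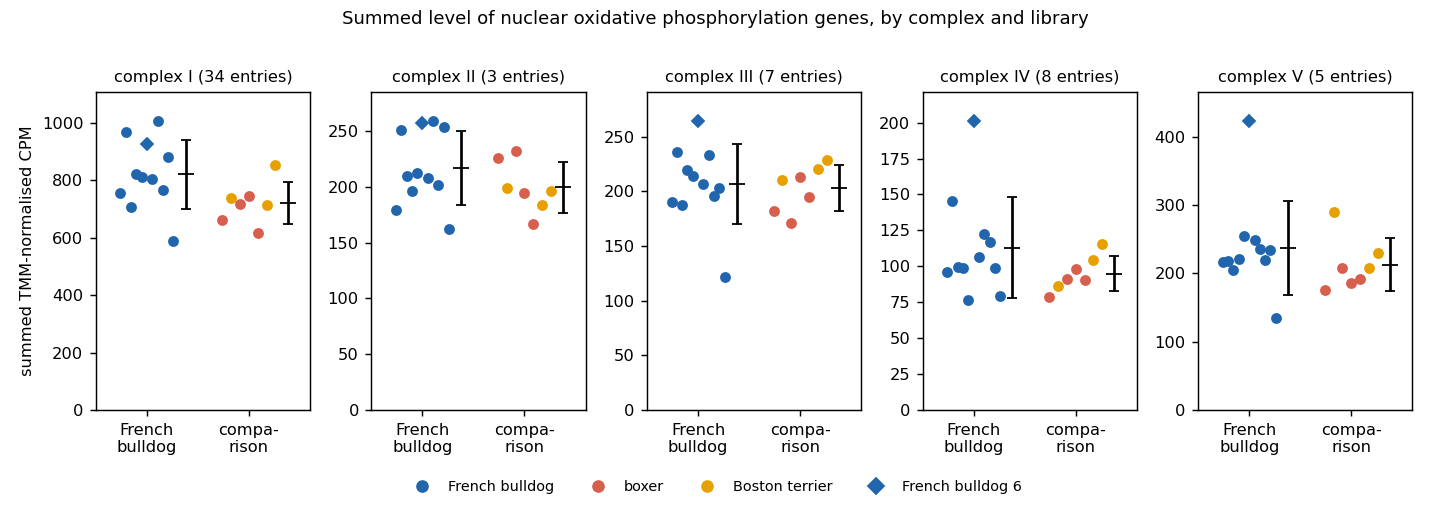
Summed TMM-normalised CPM of the entries of each respiratory complex (vertical axis, starting at 0, with its own range for each complex) in the 18 libraries. Points are libraries, coloured by breed, the diamond is French bulldog 6, and black bars are the mean and SD of each group; the groups overlap in all 5 complexes and French bulldog 6 is far above the others in complexes IV and V.

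The genes were next tested one by one. With edgeR's quasi-likelihood test and Benjamini-Hochberg adjustment over 16495 genes, 0 of the 56 members had an adjusted p under 0.05. In the background, 1 gene of all those tested did (0.00606%), and the smallest adjusted p of a member was 0.433. At an unadjusted p under 0.05 there were 5 members (8.93%), all higher in French bulldogs, against 10.6% of all genes tested (7.02% higher and 3.55% lower), so the share of members was no greater than the background. Without French bulldog 6, 5 of 54 members were under an unadjusted p of 0.05, all higher, against 10.8% of all genes (6.92% higher and 3.93% lower), and 0 had an adjusted p under 0.05, against 0.0183%. DESeq2's Wald test, the tool the authors used, gave 0 members past its adjusted threshold (smallest adjusted p 0.0784, COX7A2L) and 6 members past the unadjusted one, against 0.213% and 9.62% of the 27192 genes in that fit.

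Estimated fold changes were small and mostly positive. Of the 56 members, 39 (69.6%) had a higher and 17 a lower fitted level in French bulldogs, with a median log2 fold change of 0.17, beside 53.7% higher and a median of 0.035 over all genes tested. Without French bulldog 6 the split was 35 higher and 19 lower of 54 members and the median was 0.13, beside 55.4% and 0.047 for all genes. Against the boxers alone the members' median was 0.26, beside 0.033 for all genes, and against the Boston terriers alone it was 0.088, beside 0.099, and the difference between the breeds was not tested. With library totals in place of TMM it was 0.056, beside -0.069. The ribosomal protein genes, short and abundant transcripts outside the pathway, were placed further in the same direction, with 47 of 52 higher, 9 (17.3%) past an unadjusted p of 0.05, beside 10.6% of all genes, and a median of 0.30. Of these genes, 44 were higher, 7 (13.5%) were past that threshold, beside 10.8% of all genes, and the median was 0.23 without French bulldog 6. No member had groups that did not overlap, a pattern that 0.0546% of all genes tested showed.

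Members were also summarised by complex. The median log2 fold change was 0.20 for complex I, 0.28 for complex II, -0.046 for complex III, -0.059 for complex IV and 0.29 for complex V. Without French bulldog 6 these medians were 0.16, 0.21, -0.078, 0.042 and 0.012. ATP5MK, of complex V, was not tested without that library, and over the 4 complex V members tested in both fits the median went from 0.23 to 0.012. Over the alternative settings, apart from those that leave out a single library, complex I ran from 0.089 to 0.28 and complex II from 0.16 to 0.31, while complex III ran from -0.19 to 0.15 and complex IV from -0.26 to 0.18, through 0, and complex V from 0.043 to 0.33. With 1 library left out at a time, complex III ran from -0.093 to 0.025, complex IV from -0.16 to 0.087 and complex V from 0.012 to 0.36. Differences between the complexes were not tested.

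**Figure D2:**
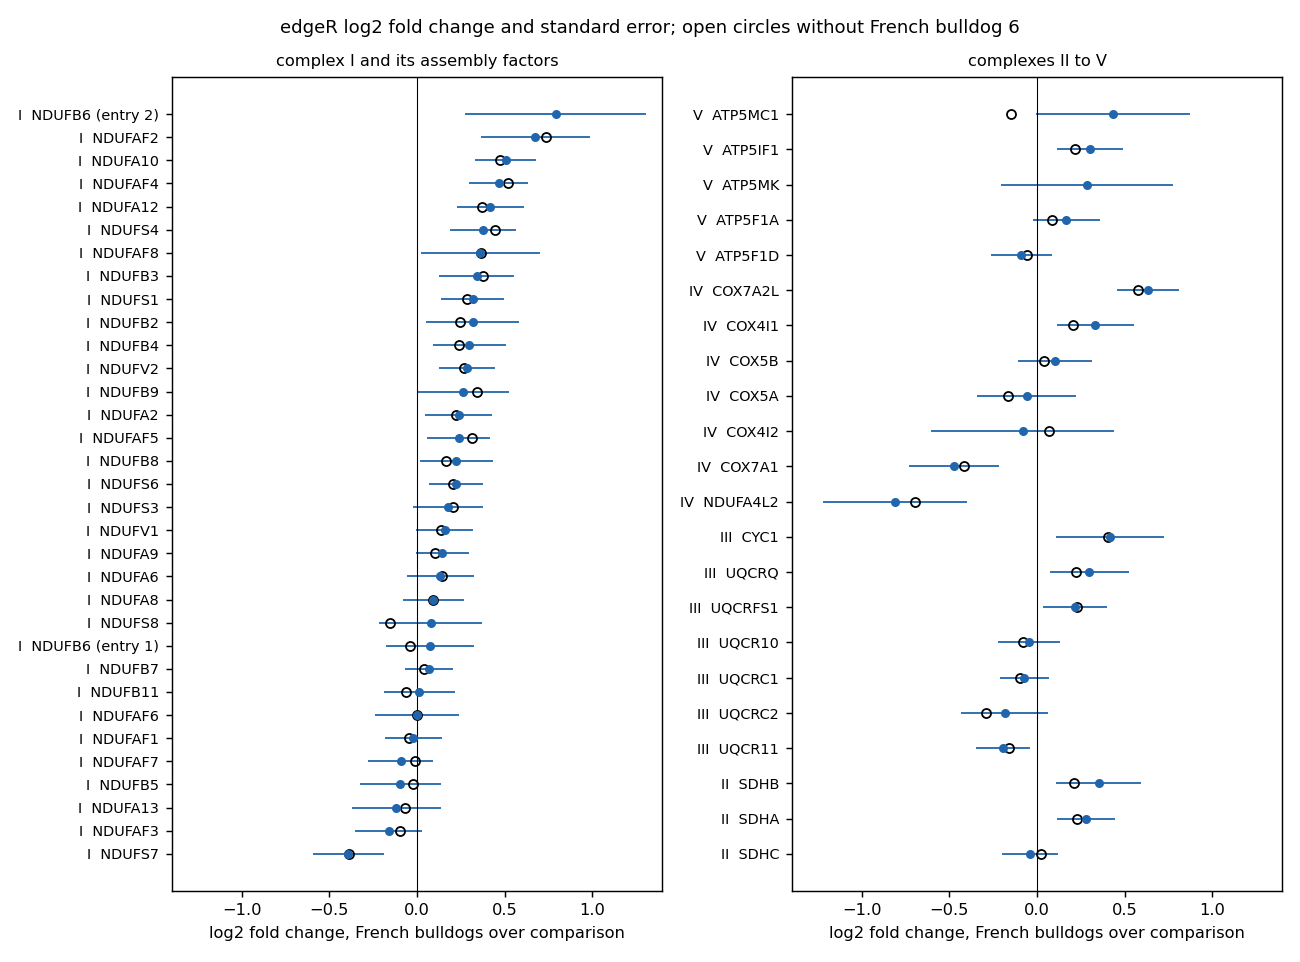
Log2 fold change of French bulldogs over the comparison group for 55 of the 56 members tested (horizontal axis), ordered within complex, with filled points and bars for the edgeR estimate and its standard error. Open circles are the estimates without French bulldog 6, in which NDUFB6 entry 2 and ATP5MK were not tested; ATP5MC1 moves from 0.43 to -0.15, and COX7A2L stays near 0.6.

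Complex I held most of the members. Of its 26 subunits, 23 had a higher fitted level in French bulldogs, and 19 of 25 without French bulldog 6. All 7 subunits of the electron-input module, where NADH is oxidised, were on the higher side in both fits (NDUFV1, NDUFV2, NDUFS1, NDUFS4, NDUFS6, NDUFA2 and NDUFA12), with log2 fold changes of 0.16 to 0.42 in all 18 libraries. Of these 7, only NDUFA12 was under an unadjusted p of 0.05 with all libraries, and only NDUFS4 without French bulldog 6. The 6 subunits of the quinone-reduction module had a median of 0.12, and the 13 entries of the membrane arm had a median of 0.22, with 11 higher. The membrane arm had a median of 0.13, with 8 of 12 higher, without French bulldog 6. The modules were not tested against each other.

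NDUFA10, an accessory subunit of the membrane arm, ranged from 27.1 to 55.2 CPM in French bulldogs (median 34.5) and from 21.8 to 38.01 CPM in the comparison group (median 24.4). French bulldogs 2, 6 and 8 lay above every comparison dog, and the other 8 lay within the comparison range. Its log2 fold change was 0.51 ± 0.18 (SE) with an unadjusted p of 0.0098 and an adjusted p of 0.433 by edgeR's quasi-likelihood test. Without French bulldog 6 it was 0.47 ± 0.17 (SE).

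NDUFA12, an accessory subunit at the electron-input end, was at 13.4 to 29.4 CPM (median 18.3) in French bulldogs and at 9.40 to 19.8 CPM (median 15.2) in the comparison group. Its log2 fold change was 0.42 ± 0.19 (SE; edgeR's quasi-likelihood test, unadjusted p = 0.043, adjusted p = 0.462), and leaving out French bulldog 6 moved the unadjusted p to 0.055. NDUFS4, a small subunit whose loss causes Leigh syndrome in people, was at 19.1 to 41.8 CPM (median 27.8) against 15.8 to 28.7 CPM (median 21.4). The log2 fold change of NDUFS4 was 0.38 ± 0.19 (SE, unadjusted p = 0.063), and 0.44 ± 0.18 (SE, unadjusted p = 0.024) without French bulldog 6. In both genes 4 or 5 French bulldogs were above the comparison range and the rest overlapped it.

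Core subunits that carry iron-sulfur clusters did not share one placement. NDUFS1, the largest of them, ranged from 57.2 to 132 CPM (median 86.9) in French bulldogs and from 61.2 to 116 CPM (median 68.9) in the comparison group, with a log2 fold change of 0.32 ± 0.18 (SE, unadjusted p = 0.094). NDUFV2 ranged from 31.1 to 56.2 CPM (median 44.7) and from 28.1 to 57.7 CPM (median 33.7), with a log2 fold change of 0.29 ± 0.16 (SE, unadjusted p = 0.091), and 0.44 without comparison 2. NDUFS7, which bears the cluster next to the quinone, was placed the other way, at 8.64 to 27.2 CPM (median 14.8) against 17.5 to 24.9 CPM (median 18.7). Of the 11 French bulldogs, 8 were below every comparison dog for NDUFS7, and 1, French bulldog 9, was above all of them. The log2 fold change of NDUFS7 was -0.39 ± 0.20 (SE, unadjusted p = 0.069, adjusted p = 0.498 by edgeR's quasi-likelihood test) and -0.39 without French bulldog 6.

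The assembly factors, which build complex I without remaining in it, were divided, with 4 of 8 higher in each fit. NDUFAF4 was at 20.6 to 36.1 CPM (median 27.9) in French bulldogs and at 14.8 to 27.2 CPM (median 22.0) in the comparison group. Here 6 French bulldogs lay above every comparison dog and none lay below. Its log2 fold change was 0.47 ± 0.17 (SE; edgeR's quasi-likelihood test, unadjusted p = 0.012, adjusted p = 0.433), and 0.52 ± 0.16 without French bulldog 6 (SE, unadjusted p = 0.0046).

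NDUFAF2 was more spread, at 3.47 to 17.8 CPM (median 9.25) in French bulldogs against 4.18 to 8.54 CPM (median 5.63). For this gene 6 French bulldogs were above and 2 were below every comparison dog. The log2 fold change was 0.68 ± 0.31 (SE, unadjusted p = 0.043), and RefSeq places NDUFAF2 across ERCC8 and other genes, so its count is uncertain. The entry of NDUFB6 with fewer reads had at most 28 counts in a library and a log2 fold change of 0.79 ± 0.52 (SE), while the other entry of that symbol was at 0.074 ± 0.25 (SE) and at -0.039 without French bulldog 6, and reads of a single gene may have been divided between them.

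Complex II was represented by SDHA, SDHB and SDHC, and SDHD had no entry under that symbol. SDHA, the flavoprotein that oxidises succinate, ranged from 66.1 to 151 CPM (median 95.9) in French bulldogs and from 70.1 to 98.3 CPM (median 77.6) in the comparison group. SDHB, its iron-sulfur partner, ranged from 8.23 to 28.5 CPM (median 12.4) and from 6.68 to 17.97 CPM (median 11.1). The highest library for both was French bulldog 6, and the log2 fold changes fell from 0.28 ± 0.16 to 0.23 ± 0.14 (SE) for SDHA and from 0.35 ± 0.24 to 0.21 ± 0.21 (SE) for SDHB when it was left out.

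SDHC, a membrane anchor of complex II, was at 61.8 to 135 CPM (median 102) against 82.6 to 127 CPM (median 111), with a log2 fold change of -0.040 ± 0.16 (SE) that had the opposite sign without French bulldog 6 (0.022 ± 0.15). SDHC overlaps CFAP126 in RefSeq. None of the 3 genes was under an unadjusted p of 0.05 in either fit.

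In complex III the catalytic subunits and the core proteins were placed on opposite sides, without any of them passing the test. Cytochrome c1 (CYC1) and the Rieske protein (UQCRFS1) had log2 fold changes of 0.42 ± 0.31 and 0.22 ± 0.18 (SE). The core proteins UQCRC1 and UQCRC2 were at -0.072 ± 0.14 and -0.18 ± 0.25 (SE). UQCRC2 was at -0.29 without French bulldog 6 and at -0.11 with French bulldogs 2 and 8 summed. Among accessory subunits, UQCR11 was at 23.4 to 64.6 CPM (median 48.3) against 41.6 to 63.6 CPM (median 53.3) and had -0.20 ± 0.16 (SE), or -0.12 without French bulldog 11. UQCRQ had 0.30 ± 0.23 (SE), or 0.47 without comparison 7.

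French bulldogs 2 and 8 set much of the spread of CYC1 and UQCRC2. CYC1 was at 68.4 and 61.7 CPM in these libraries and at 10.0 to 40.9 CPM in the other 16. UQCRC2 was at 10.3 and 16.8 CPM in them, with the other 16 libraries at 16.1 to 55.7 CPM. So the 2 libraries were the highest for the one subunit and among the lowest 3 for the other, within the same complex.

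Their neighbours on the chromosome were displaced in the same directions. Taking the 5 genes tested on each side in RefSeq order, 9 of 10 neighbours of CYC1 were above the median of the other 16 libraries in both French bulldog 2 and French bulldog 8, with a median deviation of 0.52 and 0.65 on the log2 scale. For UQCRC2, 10 of 10 neighbours were below it in both, with median deviations of -1.12 and -0.77. NDUFB9, a complex I subunit at 111 and 118 CPM in these libraries and at 26.7 to 73.5 CPM in the others, had 9 of 10 neighbours above in both (0.83 and 0.84). Among 53 members with a full set of 10 neighbours, CYC1 and NDUFB9 were the 2 with 9 or more above in both libraries, and UQCRC2 was the 1 with 9 or more below. Other members at an end of the range in both libraries were mixed. NDUFB3 (0.85 and 0.73), NDUFAF4 (0.51 and 0.64) and NDUFA10 (0.11 and 0.49) were high, with neighbours above. NDUFS4 was also high, but its neighbours were at -0.64 and -0.54. ATP5MC1 was the lowest in both, with neighbours at 0.22 and 0.060. In French bulldog 11 the neighbours of CYC1 and of NDUFB9 each had a median deviation of -0.77, and CYC1 and NDUFB9 were at 10.0 and 26.7 CPM, the lowest of the 18. CYC1, NDUFB9 and UQCRC2 were singled out after their values were seen, and the number of gene copies was not measured here. The share of all genes with 9 or more neighbours on one side was not taken.

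Over all members, French bulldogs 2 and 8 were both above the other 16 libraries for 7 of 56 (12.5%, beside 10.2% of all genes tested). They included CYC1, NDUFB9, NDUFB3, NDUFS4, NDUFA10 and NDUFAF4. Of these, NDUFA10 and NDUFAF4 were also among the 5 members under an unadjusted p of 0.05. With the 2 libraries summed as 1 dog, 3 members stayed under that threshold by edgeR's quasi-likelihood test, which were COX7A2L (p = 0.0026), NDUFA10 (p = 0.018) and NDUFAF4 (p = 0.021), beside 9.56% of all genes (6.45% higher and 3.11% lower), and 0 members and 0% of all genes had an adjusted p under 0.05.

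**Figure D3:**
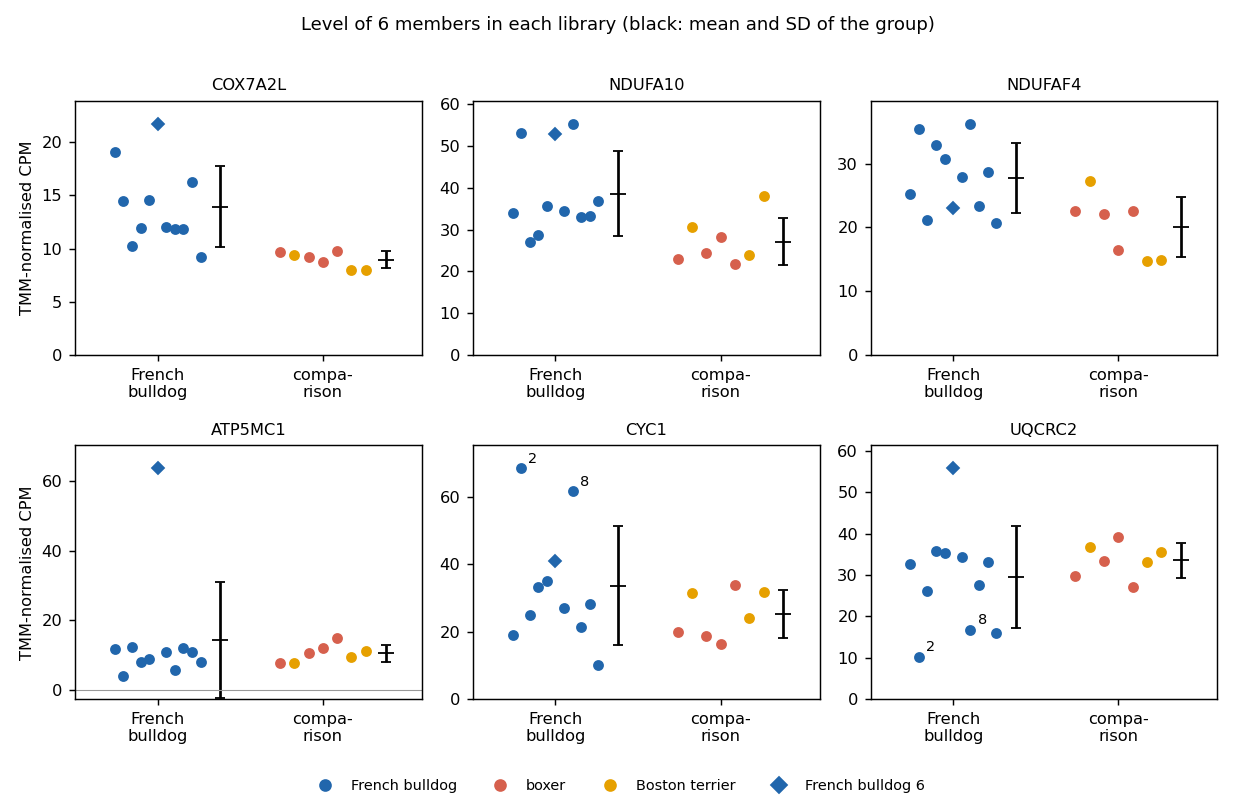
TMM-normalised CPM (vertical axes) of COX7A2L, NDUFA10, NDUFAF4, ATP5MC1, CYC1 and UQCRC2 in the 18 libraries, with points coloured by breed, a diamond for French bulldog 6, the numbers of French bulldogs 2 and 8 where they stand apart, and black bars for mean and SD. COX7A2L is above all comparison dogs in 10 of 11 French bulldogs, ATP5MC1 is high in French bulldog 6 alone, and French bulldogs 2 and 8 are at the top for CYC1 and near the bottom for UQCRC2.

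COX7A2L had the smallest p of all members. Its product, related to the COX7A subunits, takes part in joining complexes III and IV into supercomplexes. French bulldogs 1 to 11 had 19.03, 14.5, 10.3, 11.9, 14.5, 21.7, 12.0, 11.8, 11.8, 16.3 and 9.22 CPM, and comparison dogs 1 to 7 had 9.72, 9.41, 9.23, 8.77, 9.73, 7.94 and 7.95 CPM. All French bulldogs but number 11 were above every comparison dog, which 0.0788% of all genes tested showed for at least 10 of 11 French bulldogs. The log2 fold change was 0.63 ± 0.18 (SE), with an unadjusted p of 0.0022 and an adjusted p of 0.433 by edgeR's quasi-likelihood test, and 0.58 ± 0.16 (SE, unadjusted p = 0.0019) without French bulldog 6. In both breeds of the comparison group the level was low, between 8.77 and 9.73 CPM in boxers and between 7.94 and 9.41 CPM in Boston terriers.

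Other complex IV subunits of wide expression did not stand out. COX4I1 was at 41.5 to 136 CPM (median 59.96) in French bulldogs and at 44.2 to 68.3 CPM (median 53.2) in the comparison group. The 136 CPM belonged to French bulldog 6, and the log2 fold change was 0.33 ± 0.22 (SE) with that library and 0.21 ± 0.17 (SE) without it. COX5A and COX5B had log2 fold changes of -0.059 ± 0.28 and 0.10 ± 0.21 (SE), and -0.16 and 0.042 without French bulldog 6.

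The isoform genes of complex IV were read at low levels. NDUFA4L2, a relative of NDUFA4 that is induced by hypoxia in other cells, had the lowest log2 fold change of the members, -0.81 ± 0.41 (SE, unadjusted p = 0.062, adjusted p = 0.490 by edgeR's quasi-likelihood test). It ranged from 0.335 to 3.42 CPM (median 0.892) in French bulldogs and from 1.24 to 2.90 CPM (median 1.88) in the comparison group, with 7 French bulldogs below and 1 above every comparison dog. The largest count was 35 in a library, and the gene overlaps SHMT2 in RefSeq.

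COX7A1, the isoform of contractile tissue, was at 2.11 to 5.06 CPM (median 2.40) against 2.05 to 5.44 CPM (median 3.61), with a log2 fold change of -0.48 ± 0.26 (SE, unadjusted p = 0.080). COX4I2, an oxygen-sensitive isoform of COX4, was at 0.208 to 5.96 CPM (median 1.67) against 0.376 to 3.11 CPM (median 2.098), with -0.083 ± 0.52 (SE). The comparison dogs lay within the wider range of the French bulldogs for COX4I2, and its SD of log2 CPM over the 18 libraries, 1.02, was the largest of all members. Without French bulldog 6 the values were -0.70 for NDUFA4L2, -0.42 for COX7A1 and 0.066 for COX4I2.

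Levels of these isoforms are set beside the markers of vessel wall cells, in which COX4I2 and NDUFA4L2 are known to be expressed in brain. The summed level of 6 pericyte and smooth muscle markers lay in separate ranges, 59.1 to 132 CPM in 7 libraries (French bulldogs 2, 4, 5, 6, 8 and 10 and comparison 2) and 221 to 413 CPM in the other 11. COX4I2 was at 0.208 to 1.67 CPM (median 0.703) in the 7 and at 0.902 to 5.96 CPM (median 2.28) in the 11. NDUFA4L2 was at 0.335 to 1.88 CPM (median 0.468) and at 0.892 to 3.42 CPM (median 1.67) in the same libraries. COX7A1 was at 2.11 to 3.39 CPM (median 2.33) and at 2.05 to 5.44 CPM (median 3.61). Of genes of wide expression, COX4I1 had medians of 57.1 and 53.9 CPM, and COX7A2L had medians of 14.5 and 9.72 CPM. Of the 7 libraries, 6 were of French bulldogs, so the division partly follows breed, by which COX7A2L had the smallest p of the members. All 6 markers had a lower fitted level in French bulldogs (median log2 fold change -0.54, 0 past an unadjusted p of 0.05), and 5 of 6 did without French bulldog 6 (median -0.44, NOTCH3 at 0.087). The part of these cells in the isoform values was not tested. In bulk tissue, fewer cells of a type and less RNA per cell cannot be told apart. The grouping was made after the values were seen.

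**Figure D4:**
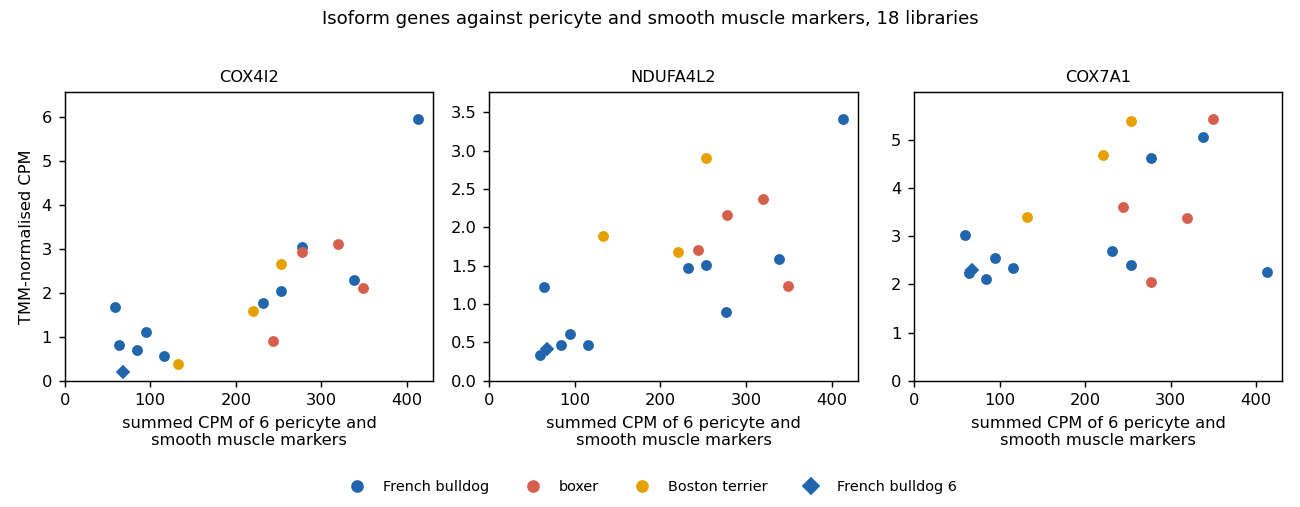
TMM-normalised CPM of COX4I2, NDUFA4L2 and COX7A1 (vertical axes) against the summed CPM of 6 pericyte and smooth muscle markers (horizontal axis) in the 18 libraries, coloured by breed, with a diamond for French bulldog 6. Of the 18 points, 7 lie at 132 CPM or less on the horizontal axis and 11 at 221 CPM or more, and the highest COX4I2 value, 5.96 CPM, belongs to the library with the highest marker sum.

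In complex V the catalytic alpha subunit ATP5F1A was at 86.1 to 276 CPM (median 159) in French bulldogs and at 119 to 225 CPM (median 130) in the comparison group, with a log2 fold change of 0.17 ± 0.19 (SE), 0.084 ± 0.16 (SE) without French bulldog 6 and 0.31 without comparison 2. ATP5IF1, the inhibitor that limits ATP hydrolysis by the synthase, was at 20.3 to 49.3 CPM (median 26.02) against 15.3 to 28.3 CPM (median 23.4), with 0.30 ± 0.19 (SE), and 0.22 without that library. The top value of both genes was that of French bulldog 6. ATP5MK, a small accessory subunit, had at most 21 counts in a library and a log2 fold change of 0.29 ± 0.49 (SE), which ran from 0.096 without French bulldog 10 to 0.49 without comparison 4, with 0.13 without comparison 6.

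ATP5MC1, which encodes the subunit of the rotating c-ring, was at 63.7 CPM in French bulldog 6 and at 4.13 to 14.9 CPM in the other 17 libraries. Its median was 10.9 CPM in French bulldogs and 10.6 CPM in the comparison group. The log2 fold change was 0.43 ± 0.44 (SE) with all libraries and -0.15 ± 0.23 (SE) without French bulldog 6, so the sign came from that library. Its log2 CPM had an SD of 0.77 over the 18 libraries and of 0.44 without French bulldog 6.

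Read over libraries rather than groups, the members shifted together in some dogs. The median deviation of the 56 members from their own median over the 18 libraries was lowest in French bulldog 11, at -0.39 on the log2 scale. Of the members, 12 (21.4%) were above their own median there, while the same share of all genes tested ran from 44.0 to 55.3% over the libraries. French bulldog 11 was the lowest of the 18 for 17 members (30.4%, beside 5.64% of all genes tested), among them ATP5F1A, SDHC, NDUFS1, CYC1, UQCRC1 and UQCR11, which belong to 4 of the 5 complexes. Its median deviations by complex were -0.31 for I, -0.54 for II, -0.67 for III, -0.25 for IV and -0.66 for V. The same library had 1041 CPM in the oligodendrocyte lineage sum, near the low end of the range of the other libraries besides French bulldog 6. Other values of French bulldog 11 also lay at an end of the range. The summed level of 7 hypoxia genes was 493.5 CPM, the highest of the French bulldogs, and comparison 7 had 543 CPM. NDRG1, one of them, was at 185 CPM against at most 59.98 CPM in the other libraries. The list was mixed there. ANKRD37 was at 1.59 CPM, the lowest of the 18, and PDK1 was at 62.8 CPM, within the 33.2 to 123 CPM of the other libraries. The neuron sum was 82.3 CPM, the lowest besides French bulldog 6, the macrophage and microglia sum was 272 CPM, the third highest, and the most abundant gene took 33.4% of counts, the largest share of the 18. Their part in the members' level was not tested.

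French bulldog 6 was at the other end. It was the highest of the 18 for 26 of 56 members (46.4%, beside 20.8% of all genes tested) and the lowest for 2, COX4I2 and NDUFAF7 (3.57%, beside 29.9%). Its median deviation was 0.36 for complex I, 0.72 for complex II, 0.46 for complex III, 0.80 for complex IV and 0.94 for complex V. NDUFS8, a core iron-sulfur subunit of complex I, was at 36.0 CPM there and at 6.92 to 22.1 CPM elsewhere, and its log2 fold change went from 0.078 to -0.15 without that library. This was the library with the macrophage markers given above, and what they contributed to the members' values was not tested.

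Members also differed among comparison dogs of one breed. Of the 56 members, 45 (80.4%) were above their own median in the Boston terrier numbered comparison 7, and 21 and 27 were in the other Boston terriers, comparison 2 and 6. In the boxers the counts were 15, 18, 26 and 17 for comparison 1, 3, 4 and 5. The summed level of all complex I entries was 684 ± 57.0 CPM in boxers (SD, n = 4) and 768 ± 73.2 CPM in Boston terriers (SD, n = 3), and 821 ± 121 CPM in French bulldogs (SD, n = 11).

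**Figure D5:**
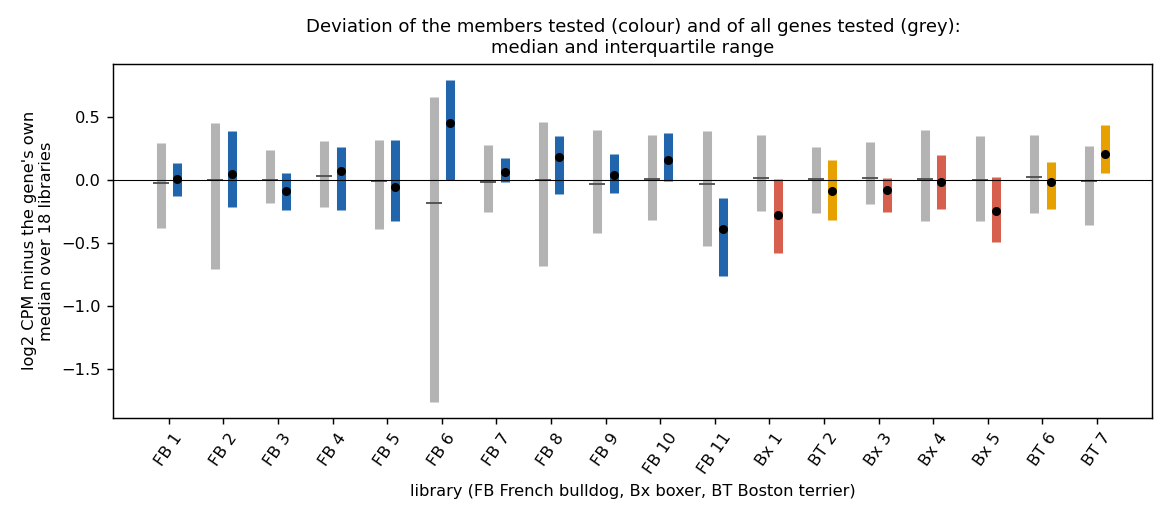
Deviation of log2 CPM from each gene's own median over the 18 libraries (vertical axis), by library (horizontal axis), with the median (point or dash) and the interquartile range (bar) for the 56 members in colour and for all 16495 genes tested in grey. The members' median is lowest in French bulldog 11 (-0.39) and highest in French bulldog 6, where grey and coloured bars part most.

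The members as a class were steadier than most genes. Their SD of log2 CPM over the 18 libraries had a median of 0.40, compared with 0.65 for all genes tested. Within the interquartile range of the members' mean level, the median SD was 0.41 for 28 members and 0.52 for all 4526 genes of that range. The most variable were COX4I2 (1.02), the less-read NDUFB6 entry (0.87), NDUFA4L2 (0.84), ATP5MK (0.81) and ATP5MC1 (0.77), most of them read at a few CPM. Without French bulldog 6, ATP5MC1 was at 0.44, below NDUFAF2 (0.69) and CYC1 (0.66), and the other 4 remained the most variable.

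Other genes of mitochondrial energy metabolism were taken from lists. Among 27 assembly and biogenesis factors outside the naming rule, 18 were higher and 9 lower in French bulldogs, with a median log2 fold change of 0.12. Of these, 4 (14.8%) were under an unadjusted p of 0.05, all higher, beside 10.6% of all genes tested (7.02% higher), and 5 (18.5%) without French bulldog 6, with COX11 added, beside 10.8%. The 4 were UQCC2 (0.77 ± 0.25, SE), which serves cytochrome b of complex III, COX16 (1.18 ± 0.40, SE), which serves complex IV, TMEM70 (0.52 ± 0.20, SE), which serves the ATP synthase, and SDHAF4 (0.53 ± 0.21, SE), which serves complex II. Their adjusted p was 0.433 by edgeR's quasi-likelihood test, so none passed. UQCC2 was at 25.9 ± 9.54 CPM in French bulldogs (SD, n = 11) and 15.2 ± 4.49 CPM in the comparison group (SD, n = 7), and COX16 at 4.81 ± 2.38 and 2.103 ± 1.12 CPM.

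Of 11 genes of the tricarboxylic acid cycle, which feeds NADH and succinate to complexes I and II, 8 were higher and 3 lower, with a median of 0.11 and of 0.028 without French bulldog 6. DLD, the dihydrolipoyl dehydrogenase shared by several dehydrogenase complexes, was at 77.2 ± 25.3 CPM (SD, n = 11) against 49.0 ± 11.1 CPM (SD, n = 7). The log2 fold change of DLD was 0.66 ± 0.20 (SE; edgeR's quasi-likelihood test, unadjusted p = 0.0047, adjusted p = 0.433), and 0.57 without French bulldog 6. DLST, of the 2-oxoglutarate dehydrogenase complex, had 0.36 ± 0.20 (SE).

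Among 13 regulators of mitochondrial biogenesis, 7 were higher and 6 lower, with a median of 0.13 and of 0.030 without French bulldog 6, and none was under an unadjusted p of 0.05 with all libraries. PPARGC1A, the coactivator that drives mitochondrial gene programs, was at 22.9 ± 14.9 CPM in French bulldogs (SD, n = 11) and 45.4 ± 10.9 CPM in the comparison group (SD, n = 7). It was at 0.312 CPM in French bulldog 6 and at 8.48 to 64.8 CPM in the other 17 libraries. Its log2 fold change was -0.98 ± 0.49 (SE, unadjusted p = 0.061) and -0.82 without French bulldog 6 (unadjusted p = 0.020). TFAM, which packages and transcribes mitochondrial DNA, was at 0.38 ± 0.20 (SE), on the other side.

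Of 13 glycolysis genes, 8 were higher and 5 lower, with a median of 0.18 that was -0.051 without French bulldog 6, and none was under an unadjusted p of 0.05 in either fit. HK2, the inducible hexokinase, was at 233 CPM in French bulldog 6 and at 2.86 to 28.5 CPM elsewhere, and its log2 fold change went from 1.13 ± 0.81 (SE) to -0.30 when that library was left out. PFKM had -0.32 ± 0.29 (SE), and -0.17 without French bulldog 6, where it was at 9.48 CPM against 37.7 to 109 CPM elsewhere. Of 7 hypoxia-induced genes, 3 were higher and 4 lower. CA9, a carbonic anhydrase, had -1.17 ± 0.41 (SE; edgeR's quasi-likelihood test, unadjusted p = 0.010, adjusted p = 0.433), at 1.21 ± 0.605 CPM in French bulldogs (SD, n = 11) and 2.73 ± 1.82 CPM in the comparison group (SD, n = 7). VEGFA had -0.88 ± 0.49 (SE), and -0.55 without comparison 7.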

How the data were processed

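RNA from formalin-fixed, paraffin-embedded tumor was sequenced after ribosomal depletion as paired-end stranded total RNA libraries. The authors trimmed reads (Trimmomatic 0.33), mapped them to canFam6 (HISAT2 2.1.0), counted them per gene with featureCounts and deposited raw counts for 29993 genes, without normalization. Depletion, fixation and fragment size selection can change how short transcripts are captured. Total counts of 8212452 to 13169880 per library limit the precision of low genes.

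Groups came from the sample labels. Counts were filtered (filterByExpr), TMM-normalised (factors 0.812 to 1.114) and tested two-sided with edgeR 4.0.16 (robust quasi-likelihood F test, R 4.3.3), 11 French bulldogs against 7 comparison dogs, with Benjamini-Hochberg adjustment over all genes tested. SE is the absolute log2 fold change over the root of F. Log2 CPM used a prior count of 2. The script was tested on simulated data. Alternatives were DESeq2 1.42.0, limma 3.58.1 (voom), other normalizations and filters, each library left out, libraries 2 and 8 summed, parts of the comparison group and a replicate block.

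The members, lists and tests were chosen with earlier results of these data known. Named members were the 10 of smallest p, any whose groups did not overlap, the highest and lowest of each complex, the 5 most variable, the SDH genes, isoform families and, of each other list, the 2 of smallest p. Others were named after their values were seen (CYC1, UQCRC1, UQCRC2, UQCRFS1, NDUFB9, NDUFS8, COX5A, COX5B, TMEM70, SDHAF4). For 1 member, values are not reported here by name. RPS6K kinases were left out of the ribosomal list. Neighbouring and overlapping genes were taken from RefSeq (UU_Cfam_GSD_1.0) by symbol, with no coordinates used. The replicate numbers were not taken as pairs, since the correlations of deviations between same-numbered libraries ran from -0.50 to 0.21. Marker lists of neurons, myelinating oligodendrocytes, astrocytes, endothelium, skeletal and heart muscle, and T cells were used to describe the libraries.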

Additional observations from a re-analysis of the deposited data

Results flagged for a closer look

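In 28 members or sums looked at in the 7 comparison dogs, 3 had a library far from the others of the group, and chance marks about 1 in 20. NDUFS1 was at 116 CPM in the boxer numbered comparison 4 and at 61.2 to 80.8 CPM in the other 6. ATP5F1A was at 225 CPM in the Boston terrier numbered comparison 2, against 119 to 143 CPM, and NDUFV2 was at 57.7 CPM in the same dog, against 28.1 to 36.4 CPM. NDUFS1 and NDUFV2 both belong to the electron-input module of complex I, but the dog that stood apart was not the same.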

How the results depend on the processing

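No member passed the adjusted threshold under any of the 36 alternatives; the smallest adjusted p was 0.0540 (DESeq2 without French bulldog 6). Members under an unadjusted p of 0.05 numbered 5 of 56 as reported (10.6% of all genes), 3 with French bulldogs 2 and 8 summed (9.56%; 3 and 8.51% also without number 6), 3 against Boston terriers (3.17%), 2 against comparison libraries of index 18 to 21 (4.94%), 3 against those of index 1 to 3 (4.34%), and 3 to 8 with 1 library left out: 3 without French bulldog 8 (9.24%), comparison 1 (8.72%) or comparison 3 (8.75%), and 8 without French bulldog 11 (10.7%). By library totals alone the 5 were 2 higher and 3 lower, in place of 5 higher, and the median of all genes moved from 0.035 to -0.069 and that of members from 0.17 to 0.056. The median over members was 0.056 to 0.26 over the alternatives and libraries left out. The index is the number that ends a library name. Comparison 1 to 4 carried 18 to 21 and comparison 5 to 7 carried 1 to 3, numbers that French bulldogs 1 to 3 also carried. Boxers and Boston terriers were unevenly divided between the 2 index sets, so breed and index are partly tied.

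Of 1169 alternative values for 33 named genes, 1142 kept their direction and side of the threshold and 27, in 5 genes, changed sign. The threshold was the adjusted one, which no named gene was near with all libraries (smallest adjusted p 0.433 by edgeR's quasi-likelihood test). Calls by unadjusted p did move, as given above for NDUFA12 and NDUFS4. Not every gene named in the text was among the 33. NDUFS8 (0.078 to -0.15) and the more-read NDUFB6 entry (0.074 to -0.039) also changed sign without French bulldog 6. With DESeq2, ATP5MC1 was at -0.15 and HK2 at -0.30, the same without French bulldog 6 (-0.15 and -0.30, with COX4I2 at 0.066 and SDHC at 0.017), and with 6 left out and 2 and 8 summed they were at -0.10 and -0.26, with COX4I2 at 0.095. Against Boston terriers, COX4I2 was 0.26, SDHC 0.020 and ATP5F1A -0.034. COX4I2 was 0.18 against index 18 to 21, and SDHC was 0.21 against index 1 to 3. Leaving out 1 library gave -0.44 to 0.068 for COX4I2, -0.093 to 0.022 for SDHC, -0.15 to 0.54 for ATP5MC1 and -0.30 to 1.26 for HK2. The cause was not tested, other than that the DESeq2 values of ATP5MC1 and HK2 equal those without French bulldog 6.

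With a replicate block over numbers 1 to 7, 6 of 54 members were under an unadjusted p of 0.05 (4 higher, 2 lower), as were 967 of 16028 genes, and the members' median was 0.14. Without the block the same dogs gave 6 members and 1726 genes, with COX4I2 at 0.063 and the log2 fold change of SDHC at 0.00163. Of the 7 numbers, 0 had each library correlating best with its own number. The settings with number 6 left out and 2 and 8 summed, DESeq2 without 6, and numbers 1 to 7 without the block were chosen after seeing the data.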
